A study of Homo sapiens with 18 samples.

Results

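The epithelial-mesenchymal transition genes described here are CDH1, CDH2, EPCAM, VIM, FN1, ZEB1, ZEB2, SNAI1, SNAI2 and TWIST1, 10 genes of the 35044 in the count table. They were chosen by symbol, through the Ensembl identifier of each row without its version, and all 10 had a row. HCC1937 is a human breast cancer cell line whose own BRCA1 is mutated. The libraries came from HCC1937-EV, which carries an empty vector, and from HCC1937-OE-BRCA1, labelled as overexpressing wild-type BRCA1. Untreated cells and cells given the PARPi olaparib for 12 h or 24 h were sequenced from both, 3 libraries a condition and 18 in total. The comparisons ask how the cell lines differ, how each responds to the drug and whether the responses differ. The labels list olaparib for the 0 h libraries as well and record WT as the genotype of HCC1937-EV, so groups were taken from the cell line and time that each title names. Whether either cell line is 1 clone, and whether the 3 libraries of a condition were separate cultures, is not given in the sources used here, so p-values measure only the spread between these libraries.

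In an epithelial-mesenchymal transition, cells that adhere to each other through E-cadherin lose those contacts, take up vimentin filaments and fibronectin matrix, and become motile. The transcription factors SNAI1, SNAI2, ZEB1, ZEB2 and TWIST1 repress CDH1 and other epithelial genes, in part through short DNA motifs called E-boxes. ZEB1 and ZEB2 and the microRNAs of the miR-200 family are known to repress each other, so that epithelial cells usually hold the microRNAs and mesenchymal cells the ZEB factors. In breast cancer, high VIM with low CDH1 is a common description of mesenchymal-like cell lines.

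The 5 mature microRNAs of the miR-200 family are shown because ZEB1 and ZEB2 are their best-known targets. The sequences are from RefSeq (GRCh38.p14), 5′ to 3′, with the seed, bases 2 to 8, in capitals. The first 2 share the seed AACACUG and the other 3 the seed AAUACUG.
hsa-miR-141-3p: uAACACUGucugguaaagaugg
hsa-miR-200a-3p: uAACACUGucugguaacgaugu
hsa-miR-200b-3p: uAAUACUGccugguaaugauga
hsa-miR-200c-3p: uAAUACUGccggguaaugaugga
hsa-miR-429: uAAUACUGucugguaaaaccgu

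The stretch that pairs with the seed AAUACUG reads CAGTATT. It occurred 6 times in the 3′ UTR of ZEB1, which is 2549 bases long in the transcript with the longest coding sequence in GENCODE release 29 (GRCh38), and 5 times in the 3′ UTR of ZEB2, which is 5370 bases long. Over the first 2549 bases of the 3′ UTRs that are at least as long as that of ZEB1, 27.8% of 3440 genes held the stretch at all and 1, ZEB1 itself, held it 6 times or more. For ZEB2, compared in the same way with 816 genes over 5370 bases, 48.4% held it and 1, ZEB2 itself, had 5 or more. FN1 held it 2 times and SNAI2 1 time, and it was not found in the 3′ UTRs of CDH1, CDH2, EPCAM, VIM, SNAI1 or TWIST1. CAGTGTT, which pairs with the other seed, occurred 3 times in ZEB1, 4 times in ZEB2 and in no other of the 10 genes. The CAGTATT matches of ZEB1 and ZEB2 are printed with 8 bases on either side and the match in capitals. A match is a description of the sequence, and microRNA levels were not measured in these libraries.
ZEB1 site 1, chr10:31527625-31527647, plus strand: tatcttatCAGTATTatcactct
ZEB1 site 2, chr10:31527719-31527741, plus strand: atccgcttCAGTATTttattatg
ZEB1 site 3, chr10:31528148-31528170, plus strand: ccatttctCAGTATTttcaaggc
ZEB1 site 4, chr10:31528499-31528521, plus strand: ttacctatCAGTATTattttatt
ZEB1 site 5, chr10:31528569-31528591, plus strand: aaacctggCAGTATTaataccct
ZEB1 site 6, chr10:31529220-31529242, plus strand: atcattatCAGTATTttctttgg
ZEB2 site 1, chr2:144389045-144389067, minus strand: ccatacatCAGTATTtttattat
ZEB2 site 2, chr2:144388982-144389004, minus strand: caatgcatCAGTATTatgattcc
ZEB2 site 3, chr2:144388624-144388646, minus strand: acccatgtCAGTATTagaagaat
ZEB2 site 4, chr2:144388539-144388561, minus strand: aattttgtCAGTATTacaccaaa
ZEB2 site 5, chr2:144388408-144388430, minus strand: gtagtgtaCAGTATTatagttct

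Promoter windows of 300 bases, from 250 bases before to 50 after an annotated start, were held for 5 of the 10 genes (ZEB1, ZEB2, VIM, FN1 and CDH2; RefSeq, GRCh38.p14), 12 windows in all. They were searched on both strands for the E-box read by ZEB and SNAI factors, CACCTG or its complement CAGGTG, which 20.6% of all 35116 windows held, and for the cAMP response element TGACGTCA, which 1.85% held. ZEB1 had 3 E-boxes in 1 of its 7 windows, starting 242 and 85 bases before the start and 33 bases after it, and 1 in another window, while 3.49% of all windows held 2 or more. The window of FN1 held 1 cAMP response element, 183 bases before its start. Neither motif was in the windows of VIM, ZEB2 or CDH2. The windows of ZEB1 and FN1 with the most matches are printed with the matches in capitals.
ZEB1, chr10:31318966-31319265, plus strand: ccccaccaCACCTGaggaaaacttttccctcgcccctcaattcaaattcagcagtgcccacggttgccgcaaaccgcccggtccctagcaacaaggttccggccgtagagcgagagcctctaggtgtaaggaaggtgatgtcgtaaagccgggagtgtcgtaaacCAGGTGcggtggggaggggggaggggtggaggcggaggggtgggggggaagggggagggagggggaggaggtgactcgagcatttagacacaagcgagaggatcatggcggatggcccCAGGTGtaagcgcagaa
FN1, chr2:215436019-215436318, minus strand: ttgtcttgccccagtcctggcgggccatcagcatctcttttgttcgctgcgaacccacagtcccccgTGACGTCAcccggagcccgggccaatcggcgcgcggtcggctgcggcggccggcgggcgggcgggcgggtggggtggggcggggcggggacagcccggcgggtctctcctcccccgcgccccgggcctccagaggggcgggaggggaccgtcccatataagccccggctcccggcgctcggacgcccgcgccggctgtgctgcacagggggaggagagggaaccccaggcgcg

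Total counts per library lay between 15081973 and 17571922. Levels are CPM, read counts divided by library sizes that edgeR's TMM method had corrected. A gene was called where its p in edgeR's quasi-likelihood F test, adjusted by Benjamini-Hochberg over the 18335 genes tested, was under 0.05, and with 3 libraries against 3 an exact permutation test of a single value cannot go below p = 0.1. BRCA1 lay at 118 ± 7.70 CPM (SD, n = 3) in untreated HCC1937-EV and 139 ± 24.0 CPM (SD, n = 3) in untreated HCC1937-OE-BRCA1, a log2 fold change of 0.24 that was not called (adjusted p = 0.0654), was called in 7 of 15 alternative analyses and was 0.09 without untreated HCC1937-OE-BRCA1 replicate 1. The transcript counts of the untreated libraries therefore do not by themselves show the overexpression that the label names. At the protein level, the paper reports truncated BRCA1 in HCC1937-EV, and truncated plus transfected wild-type BRCA1 in HCC1937-OE-BRCA1. Counts per gene do not tell these forms apart. At 12 h BRCA1 lay at 110 ± 13.2 CPM in HCC1937-EV and 123 ± 7.99 CPM in HCC1937-OE-BRCA1 (SD, n = 3). At 24 h it lay at 94.5 ± 4.47 and 161 ± 7.1 CPM, higher in HCC1937-OE-BRCA1 by 0.77 on the log2 scale (SE 0.11, adjusted p = 3.17e-06). The HCC1937-EV mean at 24 h was below its untreated mean, so the 24 h gap is not a rise in HCC1937-OE-BRCA1 alone. Pearson's r of log2 CPM across genes was 0.976 to 0.986 between replicates and 0.666 to 0.696 between the cell lines. The study describes the cell lines as congenic. Between the untreated lines, 72.7% of the genes tested were called. Whether the lines differ in genotype or origin beside BRCA1 was not tested. In every comparison between the lines an effect of BRCA1 thus cannot be told apart from any other difference between them. Of 6 markers of basal mammary epithelium, 1 had a mean of at least 1 CPM in HCC1937-EV and all 6 did in HCC1937-OE-BRCA1, with summed levels of 2.28 to 6.18 CPM and 2937 to 4825 CPM. KRT5, KRT14, KRT6A and TP63 were at or near 0 in every HCC1937-EV library. Of 6 luminal markers, 4 in HCC1937-EV and 6 in HCC1937-OE-BRCA1 reached that level, with sums of 2888 to 3789 CPM and 4746 to 8372 CPM, and KRT8 and KRT18 were high in both. Of 8 fibroblast markers, 2 reached it in HCC1937-EV (COL1A1 and PDGFRB) and 1 in HCC1937-OE-BRCA1, with sums of 97.3 to 153 CPM and 7.14 to 12.9 CPM, and the defining markers COL1A2, COL3A1, DCN and LUM were at or near 0 in HCC1937-EV. Markers of endothelium summed to 1.11 to 2.89 CPM in HCC1937-EV and 17.3 to 27.0 CPM in HCC1937-OE-BRCA1, and those of leukocytes to 0.559 to 2.28 CPM and 4.35 to 7.86 CPM. The part of these differences in the results for single genes was not tested, and in bulk RNA fewer cells of a type and less RNA per cell cannot be told apart.

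The 10 genes split the cell lines in both directions at every time. HCC1937-OE-BRCA1 was higher in the epithelial genes CDH1 and EPCAM and in FN1 and TWIST1, and HCC1937-EV was higher in VIM, ZEB1, ZEB2, SNAI1 and SNAI2. Of the 10 genes, 9 passed the filter on low counts, and all 9 were called between the untreated cell lines, 4 higher and 5 lower in HCC1937-OE-BRCA1. Of all genes tested, 72.7% were called in this comparison, 39.4% higher and 33.3% lower, so a call alone does not set these 9 genes apart. The median of the absolute log2 fold change was 4.64 over the 9 genes and 0.96 over all genes, with genes without a count in 1 group set at their bound. No library of one cell line overlapped with the other in any of the 9 genes. The share of all genes without such overlap was not counted, so this does not set the 9 genes apart either. Of all genes tested, 2.60% had a higher log2 fold change than CDH1 and 1.10% a lower one than VIM.

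**Figure D1:**
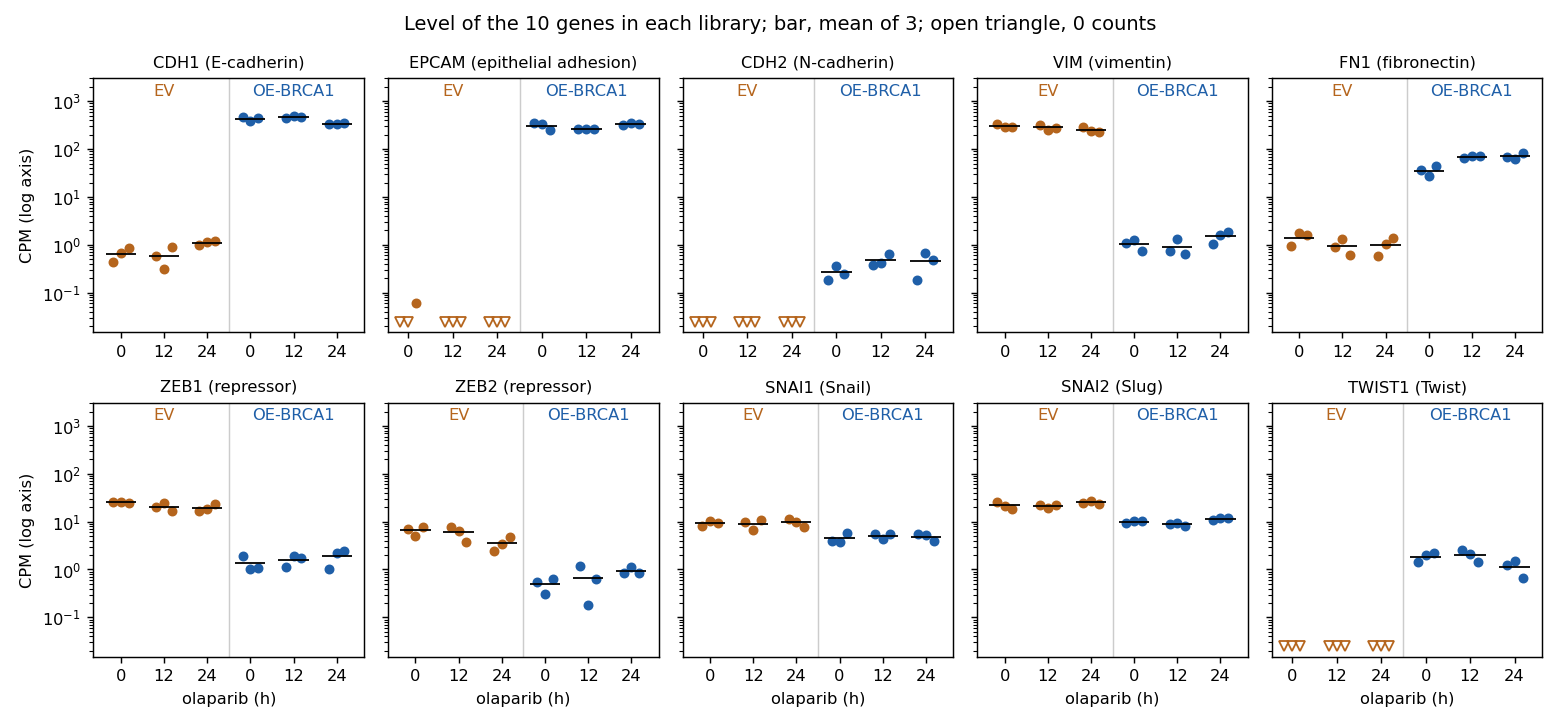
Level of each of the 10 genes in each of the 18 libraries, in CPM on a log axis, against hours of olaparib. HCC1937-EV is brown and HCC1937-OE-BRCA1 blue, black bars are means of 3 libraries, and open triangles at the bottom are libraries with 0 counts. VIM of HCC1937-EV and CDH1 and EPCAM of HCC1937-OE-BRCA1 sit above 200 CPM, and the same genes sit below 2 CPM in the other cell line.

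CDH1 encodes E-cadherin, the adhesion protein of epithelial cell junctions. Without treatment, the HCC1937-EV libraries held 0.435, 0.680 and 0.863 CPM of it and the HCC1937-OE-BRCA1 libraries 473, 388 and 440.1 CPM. HCC1937-OE-BRCA1 was 649-fold higher, a log2 fold change of 9.34 (SE 0.18, adjusted p = 6.67e-20). On the log2 scale the difference at 12 h was 9.64 (SE 0.19, adjusted p = 6.38e-20), and 24 h of drug left it at 8.25 (SE 0.17, adjusted p = 1.41e-19).

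EPCAM encodes an adhesion molecule of simple epithelia that is used to capture carcinoma cells. Untreated HCC1937-OE-BRCA1 held 347, 331 and 252 CPM. In the 9 HCC1937-EV libraries of all times together, EPCAM had 1 count, in an untreated library. The untreated cell lines stood at 15015 counts against 1, a ratio of 15060 after scaling (95% interval 2702 to 594800, exact binomial, counting error only). At 12 h and 24 h, against a floor of 3 counts over the group, HCC1937-OE-BRCA1 was at least 4100-fold and at least 5655-fold higher.

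CDH2 encodes N-cadherin, which often replaces E-cadherin in mesenchymal cells. It had no count in any of the 9 HCC1937-EV libraries and between 3 and 11 counts in those of HCC1937-OE-BRCA1, with means of 0.269, 0.479 and 0.450 CPM without treatment, at 12 h and at 24 h. It did not pass the filter on low counts. Against a floor of 3 counts over the group, HCC1937-OE-BRCA1 was at least 4.35-fold, 7.38-fold and 7.59-fold higher at the 3 times, and without the filter CDH2 was called at each (adjusted p = 0.00252, 0.000183 and 0.000188). The N-cadherin transcript was not detected in the cell line with high VIM, where 0 counts allow up to 0.0619 CPM over the untreated group.

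VIM encodes vimentin, the intermediate filament of mesenchymal cells. Untreated HCC1937-EV held 335, 287 and 296 CPM and untreated HCC1937-OE-BRCA1 1.11, 1.29 and 0.756 CPM. VIM was thus 288-fold lower in HCC1937-OE-BRCA1, with a log2 fold change of −8.17 (SE 0.21, adjusted p = 2.29e-18). At 12 h the difference was −8.27 and at 24 h −7.37 on the log2 scale, both called. VIM shares 641 exonic bases with VIM-AS1 on the opposite strand. In HCC1937-EV, VIM-AS1 had 11 to 34 counts per library and VIM 3790 to 5390. In HCC1937-OE-BRCA1, VIM-AS1 had 4 to 19 counts and VIM 10 to 31, and the antisense gene had more counts than VIM in 2 of 9 libraries. The part of the shared bases in the VIM counts was not tested. Whether the counting used strand is not given in the sources used here.

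FN1, which encodes the matrix protein fibronectin and is commonly counted with the mesenchymal genes, stood on the other side from VIM. Its levels in untreated HCC1937-EV were 0.932, 1.73 and 1.60 CPM, and in untreated HCC1937-OE-BRCA1 36.0, 27.0 and 44.3 CPM. HCC1937-OE-BRCA1 was 25-fold higher (log2 fold change 4.64, SE 0.24, adjusted p = 3.25e-13). The gap was wider after the drug, with log2 fold changes of 6.19 (SE 0.26) at 12 h and 6.13 (SE 0.25) at 24 h.

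ZEB1 and ZEB2 encode zinc finger repressors of CDH1. ZEB1 lay at 25.6, 25.6 and 24.9 CPM in untreated HCC1937-EV and at 1.91, 1.05 and 1.07 CPM in untreated HCC1937-OE-BRCA1, 18.8-fold lower (log2 fold change −4.23, SE 0.26, adjusted p = 4.11e-12). For ZEB2 the HCC1937-EV libraries held 7.08, 4.94 and 7.89 CPM and those of HCC1937-OE-BRCA1 0.554, 0.308 and 0.630 CPM, 13.2-fold lower (log2 fold change −3.72, SE 0.42, adjusted p = 8.53e-08). MIR200CHG, the host transcript of miR-200c and miR-141, named for the sequences above and not by the rule for named genes, had 2, 0 and 0 counts in HCC1937-EV and 128, 150 and 67 counts in HCC1937-OE-BRCA1 over the 3 libraries of each time. FN1 holds CAGTATT 2 times in its 3′ UTR and was higher in HCC1937-OE-BRCA1. Over that length, 12.2% of 7895 genes held the stretch and 1.14% held it 2 times or more. The microRNAs themselves were not measured, and their part in the levels of these genes was not tested. ZEB1 shares 366 exonic bases with ZEB1-AS1 on the opposite strand, and in HCC1937-OE-BRCA1 the antisense gene had more counts (73 to 119 per library) than ZEB1 (17 to 39) in 9 of 9 libraries. In HCC1937-EV it had 33 to 68 counts per library and ZEB1 242 to 414. The part of antisense reads in the ZEB1 values was not tested.

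At 12 h the differences of ZEB1 and ZEB2 were −3.69 (SE 0.25) and −3.16 (SE 0.40) on the log2 scale, and at 24 h −3.36 (SE 0.25) and −1.90 (SE 0.39). All 4 were called.

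SNAI1 and SNAI2 encode Snail and Slug, related repressors that act at E-boxes, and their differences were the smallest of the 9 genes tested. In untreated HCC1937-EV, SNAI1 lay at 8.14, 10.2 and 9.37 CPM, and in untreated HCC1937-OE-BRCA1 at 4.0, 3.70 and 5.86 CPM, 2.04-fold lower (log2 fold change −1.03, SE 0.21, adjusted p = 0.000188). SNAI2 lay at 26.2, 21.4 and 18.1 CPM against 9.24, 10.3 and 10.3 CPM, 2.20-fold lower (log2 fold change −1.14, SE 0.14, adjusted p = 2.02e-07). Of all genes tested, 19.9% had a lower log2 fold change than SNAI1 and 18% than SNAI2. Both genes stood above 3 CPM in every library of both cell lines. Their differences at 12 h were −0.83 and −1.25 and at 24 h −0.99 and −1.13 on the log2 scale, all called.

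TWIST1, a basic helix-loop-helix factor that induces the transition in many models, had no count in any HCC1937-EV library. In untreated HCC1937-OE-BRCA1 it lay at 1.42, 1.97 and 2.20 CPM. Against 3 counts over the group, that is at least 30.1-fold higher, and at 12 h and 24 h at least 31.7-fold and 19.3-fold. TWIST1 was thus detected only in the libraries of the cell line with high CDH1, at a low level.

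**Figure D2:**
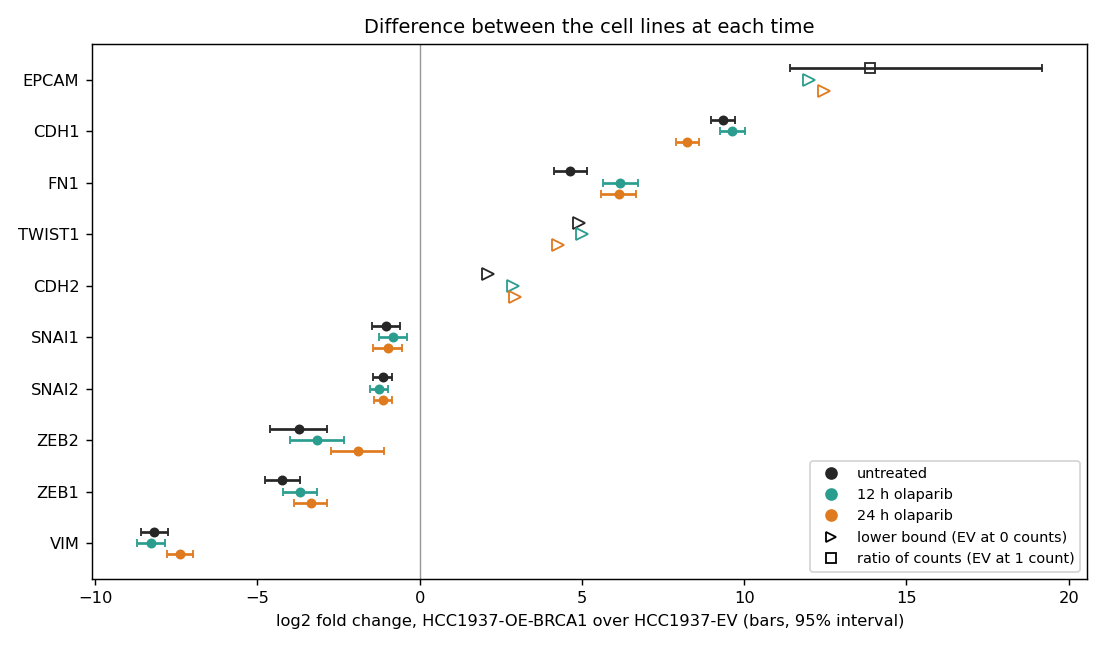
Log2 fold change of HCC1937-OE-BRCA1 over HCC1937-EV for each gene, untreated (black), at 12 h (green) and at 24 h (orange), with bars of the 95% interval. Open triangles are lower bounds where HCC1937-EV had 0 counts, and the open square is the ratio of counts of EPCAM with its counting interval. The 5 genes at the top lie above 0 and the 5 at the bottom below 0 at every time.

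Between the cell lines treated for 12 h and for 24 h, the same 9 genes were called in the same directions, where 72.9% and 73.9% of all genes were called. To compare genes with each other, levels were divided by exonic length, the union of the exons of all annotated transcripts. A union can be longer than any single transcript, so genes such as ZEB2 (25058 bases) and FN1 (17315 bases) may be placed too low. In untreated HCC1937-EV, VIM stood first at 59.3 ± 4.91 CPM per kilobase (SD, n = 3), followed by SNAI2 at 6.46 ± 1.21, SNAI1 at 5.48 ± 0.615, ZEB1 at 2.93 ± 0.0490, ZEB2 at 0.265 ± 0.0608, CDH1 at 0.107 ± 0.0348 and FN1 at 0.0821 ± 0.0248 CPM per kilobase. SNAI2 and SNAI1 overlapped between libraries, as did CDH1 and FN1. In untreated HCC1937-OE-BRCA1 the order began with EPCAM at 123 ± 20.2 and CDH1 at 70.2 ± 6.95 CPM per kilobase (SD, n = 3). SNAI2, SNAI1 and FN1 came next at 2.93 ± 0.183, 2.68 ± 0.693 and 2.06 ± 0.499 CPM per kilobase, and SNAI1 overlapped with both of the others. Below them lay TWIST1 at 0.917 ± 0.199, VIM at 0.204 ± 0.0530, ZEB1 at 0.155 ± 0.0567, CDH2 at 0.0543 ± 0.0189 and ZEB2 at 0.0198 ± 0.00671 CPM per kilobase, with VIM and ZEB1 overlapping. Per length, SNAI2 and SNAI1 were thus the highest of the 5 transcription factors in both cell lines.

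In HCC1937-EV, none of the 9 genes tested was called by edgeR after 12 h of olaparib, none had an unadjusted p under 0.05, and DESeq2 called none. Of all 18335 genes tested, 0.0436% were called and 2963 had an unadjusted p under 0.05. At 24 h none of the 9 was called either, where 13.7% of all genes were. Of the 9, 3 had an unadjusted p under 0.05 at 24 h, where 5620 of all 18335 genes did, and DESeq2 called none.

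Those 3 were CDH1, ZEB2 and VIM, and in each of them the 24 h libraries did not overlap with the untreated ones. ZEB1 was also without overlap, at 12 h (log2 fold change −0.31, adjusted p = 0.448) and at 24 h (−0.39, adjusted p = 0.187). The share of all genes without overlap was not counted. CDH1 lay at 1.0, 1.12 and 1.20 CPM at 24 h, all above the untreated libraries and all far below HCC1937-OE-BRCA1 (log2 fold change 0.74, SE 0.28, adjusted p = 0.0855). ZEB2 lay at 2.48, 3.42 and 4.73 CPM, all below the untreated libraries (log2 fold change −0.91, SE 0.32, adjusted p = 0.0627). VIM, at 286, 243 and 227 CPM, differed by −0.28 (SE 0.13, adjusted p = 0.154). In a fit of the compared conditions alone 3 of the 9 genes were called, ZEB2 (adjusted p = 0.00681), VIM (adjusted p = 0.02) and ZEB1 (adjusted p = 0.0233), all lower at 24 h. In that fit 2777 of all 14825 genes tested were called higher and 2396 lower, so these calls do not set the 3 genes apart. ZEB1 lay at 20.4 ± 3.85 CPM at 12 h and 19.4 ± 3.41 CPM at 24 h (SD, n = 3) and SNAI1 at 9.01 ± 2.15 and 9.66 ± 1.74 CPM. SNAI2 lay at 21.2 ± 2.08 and 25.2 ± 1.40 CPM, and FN1 at 0.940 ± 0.353 and 1.01 ± 0.396 CPM.

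In HCC1937-OE-BRCA1, FN1 was called at both times and CDH1 at 24 h. From 36.0, 27.0 and 44.3 CPM in the untreated libraries, FN1 rose to 66.2, 71.1 and 71.5 CPM at 12 h and stood at 68.9, 62.7 and 82.2 CPM at 24 h. No treated library overlapped with an untreated one. The log2 fold change at 12 h was 0.96 (SE 0.18, adjusted p = 0.00273), and that at 24 h 1.0 (SE 0.18, adjusted p = 0.00116), both against the same untreated libraries. FN1 was the 1 gene of 9 called at 12 h, where 2.31% of all genes were called. The call held without each library in turn, with log2 fold changes from 0.80 to 1.15 at 12 h and from 0.83 to 1.18 at 24 h.

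At 24 h FN1 and CDH1 were called, 2 of 9 genes, where 8.26% of all genes were. CDH1 fell from 473, 388 and 440.1 CPM to 329, 334 and 357 CPM, after 457, 488 and 467 CPM at 12 h. Its log2 fold change at 24 h was −0.35 (SE 0.11, adjusted p = 0.0493), just past the threshold, and in 5 of 6 fits without 1 library it was not called (lowest size −0.29 on the log2 scale, without untreated replicate 1). The other epithelial gene, EPCAM, lay at 265 ± 6.51 CPM at 12 h and 335 ± 14.4 CPM at 24 h (SD, n = 3), around its untreated 310.1 ± 50.8 CPM. VIM stayed between 0.636 and 1.90 CPM in the 6 treated libraries. ZEB1 lay at 1.57 ± 0.392 and 1.88 ± 0.731 CPM and ZEB2 at 0.670 ± 0.507 and 0.941 ± 0.142 CPM at 12 h and 24 h. SNAI1, SNAI2 and TWIST1 were not called at either time, and TWIST1 lay at 2.05 ± 0.560 and 1.15 ± 0.436 CPM (SD, n = 3).

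**Figure D3:**
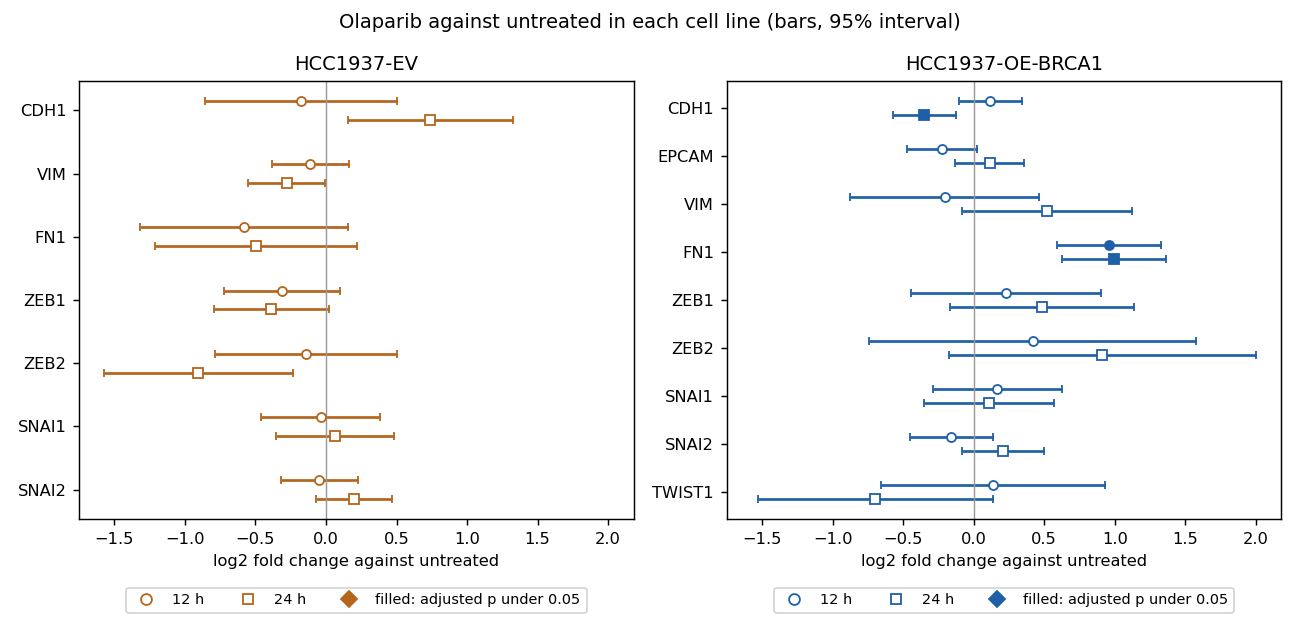
Log2 fold change of olaparib against untreated in each cell line at 12 h (circles) and 24 h (squares), with bars of the 95% interval, for genes with counts in both groups. Filled symbols passed an adjusted p of 0.05: FN1 at both times and CDH1 at 24 h, in HCC1937-OE-BRCA1.

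Whether the cell lines responded differently was tested as the difference of the log2 fold changes, HCC1937-OE-BRCA1 minus HCC1937-EV. At 12 h none of the 9 genes was called by edgeR, where 0.518% of all genes were. Of all 18335 genes, 2690 had an unadjusted p under 0.05. DESeq2 called 240 higher and 161 lower of 12623 genes with an adjusted p. Of the 9, 1 had an unadjusted p under 0.05, and DESeq2 called 1. That gene was FN1, with a difference of 1.54 (SE 0.40, adjusted p = 0.0882). At 24 h 3 of 9 genes were called, where 19.4% of all genes were. FN1 differed by 1.49 (SE 0.39, adjusted p = 0.0116), CDH1 by −1.09 (SE 0.30, adjusted p = 0.0158) and ZEB2 by 1.82 (SE 0.61, adjusted p = 0.0425). In FN1 the HCC1937-EV libraries held 51 counts in all at 24 h and 69 without treatment, and in CDH1 56 and 32, so the HCC1937-EV side of these differences rests on few counts. In ZEB2 the few counts are on the other side, with 46 at 24 h and 24 without treatment in HCC1937-OE-BRCA1. The ZEB2 call was lost in 9 of 12 fits without 1 library, and after a correction for GC content and length its difference was 1.21 (adjusted p = 0.146). The FN1 call was lost after that correction (1.0, adjusted p = 0.0503). The CDH1 call was lost without untreated HCC1937-EV replicate 1 (−0.86, adjusted p = 0.0743). ZEB1 and VIM had differences of 0.87 (adjusted p = 0.103) and 0.80 (adjusted p = 0.0814), in the direction of ZEB2, and were not called.

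Other genes of the transition were read from 4 lists that do not hold the 10 genes. Of all genes tested between the untreated cell lines, 72.7% were called, 39.4% higher and 33.3% lower in HCC1937-OE-BRCA1. Of 54 junction and epithelial genes, 44 were higher and 5 lower, 90.7% in all, with a median log2 fold change of 5.12 beside 0.11 over all genes. CDH1 and EPCAM thus stood with most of their list. ESRP1, an epithelial splicing regulator without a count in HCC1937-EV, was at least 4397-fold higher. Of the 5 that were lower, CTNNB1, the β-catenin that binds the tail of E-cadherin, stood at 133 ± 2.62 CPM against 378 ± 16.9 CPM (SD, n = 3), and PATJ, a polarity protein, at 78.3 ± 7.75 against 219 ± 1.92 CPM. At 12 h and 24 h 45 and 44 genes of the list were higher and 6 were lower at each time, where 72.9% and 73.9% of all genes were called.

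Mesenchymal and matrix genes split as VIM and FN1 did. Of 61 listed, 46 were tested, and 24 were higher and 20 lower in untreated HCC1937-OE-BRCA1, 95.7% in all beside 72.7% of all genes, with a median of 0.52 and a median absolute log2 fold change of 2.05 beside 0.96 over all genes. Higher, with FN1, were COL6A2, a collagen VI chain, at least 262-fold, and INHBA, an activin subunit, with a ratio of 569 (95% interval 102 to 22500, counting error only). Lower, with VIM, were SDC2, a cell-surface proteoglycan, at 44.1 ± 2.56 CPM in HCC1937-EV and 2 counts in HCC1937-OE-BRCA1, and NNMT, a methyltransferase, at 46.4 ± 3.16 CPM and 2 counts.

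Of 24 other transcription factors of the transition tested, 14 were higher and 7 lower in untreated HCC1937-OE-BRCA1, 87.5% in all beside 72.7% of all genes. SOX9 (7169 counts against 1) and FOXQ1 (2642 against 2) were higher, as TWIST1 was. TCF4, at 6.35 ± 0.871 CPM in HCC1937-EV and without a count in untreated HCC1937-OE-BRCA1, and TBX3 (log2 fold change −2.59, SE 0.13, adjusted p = 2.54e-13) were lower, as the ZEB genes were. Of 37 genes of TGF-β and other inducing pathways, 18 were higher and 15 lower, 89.2% in all beside the same 72.7%. BMP7, a ligand, and LTBP1, which holds latent TGF-β in the matrix, were at least 58.2-fold and 52.2-fold higher. TGFBR1, the type I TGF-β receptor, was at 10.8 ± 1.04 CPM against 340.04 ± 14.3 CPM, and SMAD4, the common partner of the receptor-activated SMADs, at 1.41 ± 0.219 CPM against 57.5 ± 4.30 CPM. In these data the cell line with high CDH1 and FN1 thus had low TGFBR1 and SMAD4 transcripts.

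**Figure D4:**
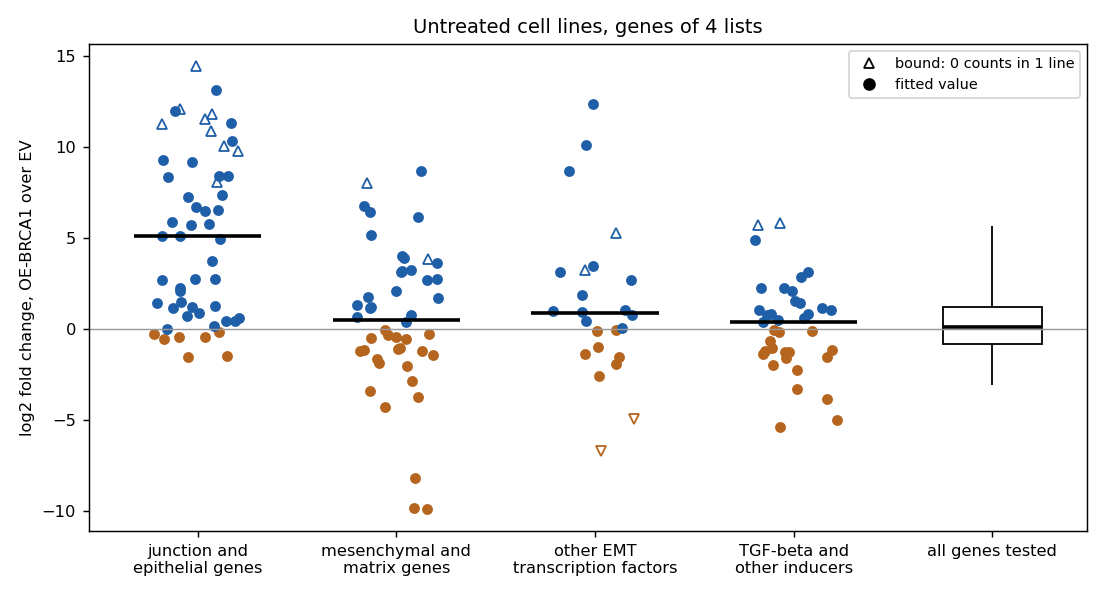
Log2 fold change of untreated HCC1937-OE-BRCA1 over untreated HCC1937-EV for the tested genes of the 4 lists (points, with thick bars at the medians) beside all 18335 genes tested (box from the 25th to the 75th percentile, line at the median, whiskers to the 5th and 95th). Open triangles are bounds of genes with 0 counts in 1 cell line. The epithelial list lies mostly above 0, with a median of 5.12, and the mesenchymal list on both sides, with a median of 0.52.

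Around the FN1 rise in HCC1937-OE-BRCA1, 2 mesenchymal genes of 46 rose and 5 fell at 12 h, and 8 rose and 9 fell at 24 h. Those are 15.2% and 37% of the list, where 2.31% and 8.26% of all genes were called. CCN2, a matricellular target of TGF-β and YAP, rose at both times, with log2 fold changes of 0.72 and 1.19 (SE 0.14 each, adjusted p = 0.00576 and 1.5e-05). PLAUR, the urokinase receptor, rose by 0.72 (SE 0.12, adjusted p = 0.00127) at 12 h. The genes that fell most at 12 h were AXL, a receptor kinase, at −1.16 (adjusted p = 6.08e-05) and CCN1 at −1.05 (adjusted p = 5.68e-06), and at 24 h TPM1, an actin-binding tropomyosin, at −1.33 (adjusted p = 1.92e-08) and MYL9, a myosin light chain, at −1.08 (adjusted p = 0.000168). FN1 thus rose beside CCN2 while TPM1 and MYL9 fell.

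Of the 54 epithelial genes, 4 rose and 5 fell at 24 h in HCC1937-OE-BRCA1, CDH1 not counted, which is 16.7% beside 8.26% of all genes. The desmosomal cadherin DSG3 rose at both times (0.72, adjusted p = 0.00576, then 0.51, adjusted p = 0.0261), PKP1 rose and PKP2 fell at 12 h (0.59, adjusted p = 0.00544, and −0.64, adjusted p = 0.000627), and at 24 h the epithelial factor EHF rose (0.51, adjusted p = 0.015). OVOL2, a repressor of ZEB1, and ESRP2 fell at 24 h by 0.79 (adjusted p = 0.0305) and by 0.59 (adjusted p = 0.00433) on the log2 scale. Of the 24 transcription factors, KLF4 rose (0.50, adjusted p = 0.00227) and TCF3 fell (−0.46, adjusted p = 0.0123) at 24 h. These 2 are 8.33% of the list beside 8.26% of all genes, so the calls do not set the factors apart. None of the 24 was called at 12 h by edgeR, where 2.31% of all genes were. An unadjusted p under 0.05 was reached by 7 of the 24 and by 2137 of all 18335 genes. DESeq2 called 4 of the 24, and of 16698 genes with an adjusted p it called 455 higher and 236 lower. Of the 37 inducer genes, 1 rose and 4 fell at 12 h, 13.5% beside 2.31% of all genes. TGFB3 rose (1.04, adjusted p = 0.0176), and TGFB2 and WNT5A were among those that fell (−0.94, adjusted p = 0.00571, and −0.90, adjusted p = 0.00208). At 24 h 2 rose and 3 fell, 13.5% beside 8.26% of all genes. EGF and ACVR1 rose (0.94, adjusted p = 0.00869, and 0.48, adjusted p = 0.0319), and WNT5B and TGFB2 were among those that fell (−0.82, adjusted p = 0.037, and −0.73, adjusted p = 0.0188).

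In HCC1937-EV none of the 161 tested genes of the 4 lists was called at 12 h by edgeR, where 0.0436% of all genes were. An unadjusted p under 0.05 was reached by 25 of the 161 and by 2963 of all 18335 genes. DESeq2 called 1 of the 161, and of 12623 genes with an adjusted p it called 175 higher and 127 lower. At 24 h 7 of 54 epithelial genes rose and 5 fell, among them the adaptor AP1M2 (0.75, adjusted p = 0.0084) and the tight junction proteins TJP3 (0.64, adjusted p = 0.0128) and TJP1 (−0.61, adjusted p = 0.0235), and the integrin ITGA6 (−0.44, adjusted p = 0.0204). Of the 46 mesenchymal genes 8 rose, led by COL6A1 (0.80, adjusted p = 0.00646) and S100A4 (0.55, adjusted p = 0.00826), and 10 fell, led by the matrix protein TNC (−1.56, adjusted p = 0.00101) and the Wnt inhibitor DKK1 (−1.33, adjusted p = 0.003). FOXC1 was the 1 factor called (0.30, adjusted p = 0.0393), and TGFB1 rose (0.55, adjusted p = 0.0134) and JAG1 fell (−0.47, adjusted p = 0.0118) among the inducers. VIM and FN1 were thus not called in HCC1937-EV while 18 of 46 genes of their list were, where 13.7% of all genes were called.

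The genes whose log2 CPM followed each of the 9 most closely over the 18 libraries were, by Pearson's r, LCN2 for CDH1 (0.998), GASK1B for EPCAM (0.999), CD55 for VIM (0.997), EXT1 for FN1 (0.995), BTRC for ZEB1 (0.993), ONECUT2 for ZEB2 (0.963), MAPK8IP2 for SNAI1 (0.945), MKLN1-AS for SNAI2 (0.980) and EFS for TWIST1 (0.998). The next were PPL and ST14 for CDH1, ANKRD18A and PDGFC for EPCAM, CHRNA9 and GLUD1 for VIM, YEATS2 and ARHGAP32 for FN1, CLASP2 and WDR11 for ZEB1, INPP5F and HOXD10 for ZEB2, PORCN and ALDH9A1 for SNAI1, GFM2 and PRSS23 for SNAI2, and an unnamed gene and LINC03014 for TWIST1. The 18 libraries fall into 2 clusters, the cell lines, so these values mostly restate the difference between them. An r above 0.9 was reached by 23.2% of all genes tested with CDH1, 18.4% with VIM, 7.05% with ZEB2 and 2.54% with SNAI1.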

How the data were processed

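The 18 RNA-seq libraries comprised 3 for each of 6 conditions, HCC1937-EV or HCC1937-OE-BRCA1 at 0 h, 12 h or 24 h. The authors extracted total RNA, prepared libraries with a NEBNext Ultra II kit and deposited raw counts of reads per gene without normalization. Per the labels, the submitters' processing notes name HISAT2, featureCounts and DESeq2 and the builds GRCh38 and hg38; versions and strandedness are not given in the sources used here. The 18 tables of single libraries held the same values as the joint table. Replicates differed by more than sampling noise (lowest chi-square per degree of freedom 3.25).

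Of 35044 identifiers, 34966 matched a symbol and 33888 GENCODE release 29. Counts were tested with edgeR 4.0.16 in R 4.3.3 (TMM, filterByExpr, quasi-likelihood test, 1 mean per condition over the 18 libraries, two-sided), with Benjamini-Hochberg adjustment over 18335 genes and a threshold of 0.05. The biological coefficient of variation was 12.9%. The test was checked on simulated data. Counts of 0 were bounded at 3 counts over a group, and intervals and bounds cover counting error only. From each list up to 2 called genes that rose and 2 that fell most in each comparison were named, with at least 1 CPM and no overlap between groups. Some genes that this rule names are not reported here. For each tested member the 3 genes with the highest r were named. The alternatives were DESeq2 1.42.0 and its size factors, other filters, a replicate block, a correction for GC content and length, the compared conditions alone and each library left out. The 10 genes and the 4 lists were chosen with earlier results of these data known. 3′ UTR sequences were read from GENCODE transcripts, and promoters and microRNAs from RefSeq tables.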

Additional observations from a re-analysis of the deposited data

Results flagged for a closer look

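In 3 genes the response to 24 h of olaparib differed between the cell lines by the test of the difference itself (log2 fold change in HCC1937-OE-BRCA1 minus that in HCC1937-EV, edgeR's quasi-likelihood test). Of all genes tested, 19.4% were called in this test. The difference was −1.09 for CDH1, which was lower at 24 h in all 3 HCC1937-OE-BRCA1 libraries and higher in all 3 HCC1937-EV libraries than in any untreated library of the same cell line. For FN1 it was 1.49, with all 3 treated HCC1937-OE-BRCA1 libraries above the untreated ones and overlapping HCC1937-EV libraries. After the correction for GC content and length it was 1.0 and no longer called (adjusted p = 0.0503). For ZEB2 it was 1.82, with the treated libraries of HCC1937-EV below and those of HCC1937-OE-BRCA1 above the untreated ones. In HCC1937-OE-BRCA1, ZEB2 had only 46 counts at 24 h and 24 without treatment. ZEB2 was not called at 24 h in either cell line alone, nor as a difference after the GC and length correction. Without 1 library, the call of the difference held in 11 of 12 fits for CDH1, 12 for FN1 and 3 for ZEB2. With groups of 3 libraries, single libraries were not tested for standing apart.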

How the results depend on the processing

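Of 390 values of the 9 genes between the cell lines under alternatives, 388 kept their direction and call. The 2 exceptions were SNAI1 at 12 h and 24 h, not called where an absolute log2 fold change over 1 was required. With at least 10 counts in every library, 4 genes were called between the cell lines at each time and 0 in HCC1937-OE-BRCA1 at 12 h, at 24 h and in the difference at 24 h, because that filter removed the other genes. With a minimum absolute log2 fold change of 1, 0 genes were called in HCC1937-OE-BRCA1 at either time. In HCC1937-EV at 24 h, 1 gene was called without a filter, 3 in the compared conditions alone and 0 to 1 with a library left out. In the compared conditions alone, 2777 of all 14825 genes tested were called higher and 2396 lower. In HCC1937-OE-BRCA1 at 24 h, 1 was called with the replicate block, 1 in the compared conditions alone and 1 to 2 with a library left out. For the difference at 12 h, 1 was called without a filter, 1 with the replicate block and GC correction together, 1 by DESeq2 and 0 to 1 with a library left out. For the difference at 24 h, 1 was called after the GC correction and 1 to 3 with a library left out. The causes were not tested.

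In no comparison did all same-numbered replicates deviate together (correlations from −0.345 to 0.214), so the numbers were not taken as pairs. With the replicate block CDH1 at 24 h in HCC1937-OE-BRCA1 was not called (−0.35, adjusted p = 0.0558). FN1 at 24 h as a difference was 1.0 after the GC correction (adjusted p = 0.0503). Of 42 other pairs of gene and comparison, with an unadjusted p of 0.05 or more, 46 of 674 alternative values had the other sign and 1 was called. Levels moved by less than 1 SD between replicates with DESeq2's size factors or raw totals. Genes with few counts, such as CDH2 and TWIST1 in HCC1937-OE-BRCA1 and CDH1 and FN1 in HCC1937-EV, limit what can be read from their treatment effects.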
